A study of Homo sapiens with 18 samples.

Results

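The 39 genes described here encode proteins of the synaptic vesicle and of regulated exocytosis, measured in bulk RNA sequencing libraries of human neuroblastoma cell lines. They were chosen by gene symbol, with earlier results of these data known, and each symbol matched 1 of the 63657 Ensembl identifiers of the deposited table. Counts set beside the shares of all genes below are therefore descriptions and not tests. Libraries numbered 18, with 3 from each of 5 entrectinib-resistant lines (ER5, ER28, ER29, ER42, ER47) and 3 from the parental line SY5Y_BR6. The cell line label gives SY5Y_BR6 for the resistant lines too, while the protocol calls the injected cells SY5Y-TrkB. Entrectinib inhibits the Trk receptors, ALK and ROS1. SY5Y-TrkB cells, neuroblastoma cells of the SH-SY5Y lineage that express the neurotrophin receptor TrkB, were grown as flank tumours in athymic nu/nu mice. The mice received oral entrectinib at 60 mg/kg, every 4 hours for the tumours behind ER5, ER28 and ER29 and every 6 hours for those behind ER42 and ER47. Each resistant line is the outgrowth of 1 tumour that had responded and then regrown, so a line is 1 tumour and not a replicate of resistance. The cultures were taken from 10 nM up to 750 nM entrectinib and held at 200 nM for harvest. For the parental culture no drug is labelled. Resistance, drug at harvest, passage through a mouse and time in culture therefore cannot be told apart in any comparison with the parental line.

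Neurons and neuroendocrine cells store transmitters in vesicles and release them when calcium enters the cell. Rab3 and Rab27 GTPases with their effectors tether a vesicle to the membrane, Munc13 and CAPS proteins prime it, and the SNARE proteins synaptobrevin, syntaxin and SNAP-25 pull the membranes together. Synaptotagmins sense the calcium, complexins clamp and then assist the SNARE bundle, and NSF with its adaptors takes the bundle apart for reuse. Neuroblastoma arises from the sympathoadrenal lineage, whose normal cells secrete catecholamines through this apparatus, and synaptophysin is used as a stain in its diagnosis.

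Values are FPKM, fragment counts divided by transcript length and library size, as the authors deposited them. Levels of different genes can therefore be set side by side. Relative depth, read from the steps between low values, was 1 to 1.96 times the depth of parental replicate 1. The lines had the sympathoadrenal regulators PHOX2A, HAND2 and GATA3 in every library, while TH, the first enzyme of catecholamine synthesis, stayed at or below 0.581 FPKM. Over 7 markers of that list the summed level was 1153 to 1934 FPKM in resistant libraries and 1917 to 1980 in parental ones. The markers did not all move the same way. In the limma model described below, 2 of the 6 tested were called higher in all 5 lines and 2 lower. Over all tested genes 5.63% and 12.3% were. For the mean of the 5 lines the median log2 fold of the 6 was -0.08. The 4 endothelial markers summed to at most 0.645 FPKM in any library, and the 7 Schwann cell and glial markers to 2.67 to 5.30 in resistant libraries, against 1.8 to 2.22 in parental ones. The 6 proliferation markers summed to 103 to 170 FPKM in ER5, 357 to 399 in ER28, 186 to 228 in ER29, 229.9 to 315 in ER47 and 368 to 440 in ER42, against 557 to 562 in the parental line. Fibroblast markers, 6 in number, summed to 28.7 to 83.1 FPKM in resistant libraries and 27.3 to 33.1 in parental ones, with the highest sum in ER42 replicate 3, where PDGFRA alone was at 66.4. The 4 blood and macrophage markers summed to 1.28 to 2.19 FPKM in resistant libraries and 1.28 to 1.76 in parental ones. The part of these lists in the results was not tested. Replicate 3 of ER42 stood apart from replicates 1 and 2 in several genes below, and folds that moved most without it are given both ways. Fewer cells of a kind and less RNA per cell cannot be told apart in bulk libraries.

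Most of the vesicle genes tested, 23 of 36, were lower for the mean of the 5 resistant lines, beside 28.9% of all tested genes. Higher were 5 of the 36, beside 23.9%. Folds are log2 differences from the parental line on the log2(FPKM + 1) scale with their SE, and a call means an adjusted p under 0.05 in limma, by Benjamini-Hochberg over the 19799 genes that reached 1 FPKM in 3 or more libraries. Of the 39 genes, 36 passed that filter. SYN3, a synapsin, SV2B, a vesicle glycoprotein, and CADPS2, a priming factor, did not, with highest values of 0.335, 0.315 and 0.0868 FPKM in any library. RAB3B passed only through the 3 libraries of ER29, and a gene that passes in this way had to be high there.

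In ER5, 4 of the 36 genes were called higher and 24 lower, where 24.5% and 27.5% of all tested genes were. In ER28 the counts were 4 higher (2 without parental replicate 1, parental replicate 2 or ER28 replicate 3) and 24 lower, against 14.6% and 20.9% of all tested genes. ER29 had 7 higher and 22 lower, against 23.1% and 27.1%. The 7 include RAB3B, which passed the filter only through ER29. ER42 had the fewest lower calls, with 6 higher and 17 lower, against 16.9% and 22.8%. ER47 had 3 higher and 21 lower, against 18.8% and 28.1%. The share of lower calls was above that of all genes in every line. The share of higher calls was below that of all tested genes in ER5 and ER47 and near it in ER28, ER29 and ER42. In ER29, 5 to 8 were higher when 1 library was left out. Without ER42 replicate 3, 7 were higher in ER42, beside 2586 of 19597 genes. The median fold of the 36 genes was -0.69 in ER5, -0.63 in ER28, -0.56 in ER29, -0.53 in ER47 and -0.29 in ER42, where the median of all tested genes lay between -0.01 and 0.04. In protein-coding genes fitted alone the medians lay between -0.12 and -0.07. For the mean of the 5 resistant lines, 5 were higher (3 without parental replicate 3), 23 lower and 8 neither, beside 23.9% and 28.9% of all tested genes. For that mean, 3162 of the 12795 protein-coding genes fitted alone were higher and 5224 lower. The error of that mean comes from libraries within lines, not from the spread between lines.

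Called lower in all 5 lines were 10 of the 36 genes, SYT4, SYT7, SYP, SYNGR3, STX3, UNC13B, CPLX1, CPLX2, NSF and DNAJC5. Over all tested genes 12.3% had that pattern, and so did 2415 of the 12795 protein-coding genes fitted alone. SV2C alone among the 36 was called higher in all 5 lines, a pattern that 5.63% of all tested genes had, and without ER5 replicate 1 CADPS joined it. In each of the 10, all 15 resistant libraries lay below every parental library (15.9% of all tested genes), and in SV2C all lay above (8.68%). The 5 comparisons share the parental libraries and are not independent. Under the alternative settings 8 to 10 of the genes were still lower in all 5 lines, and NSF, SYP and SYT7 lost a call under 1 or more. CPLX1 and SYT7 did not pass a filter of FPKM 5 and were not tested there. SNAP25, RPH3A and NAPB were called higher in some lines and lower in others.

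**Figure D1:**
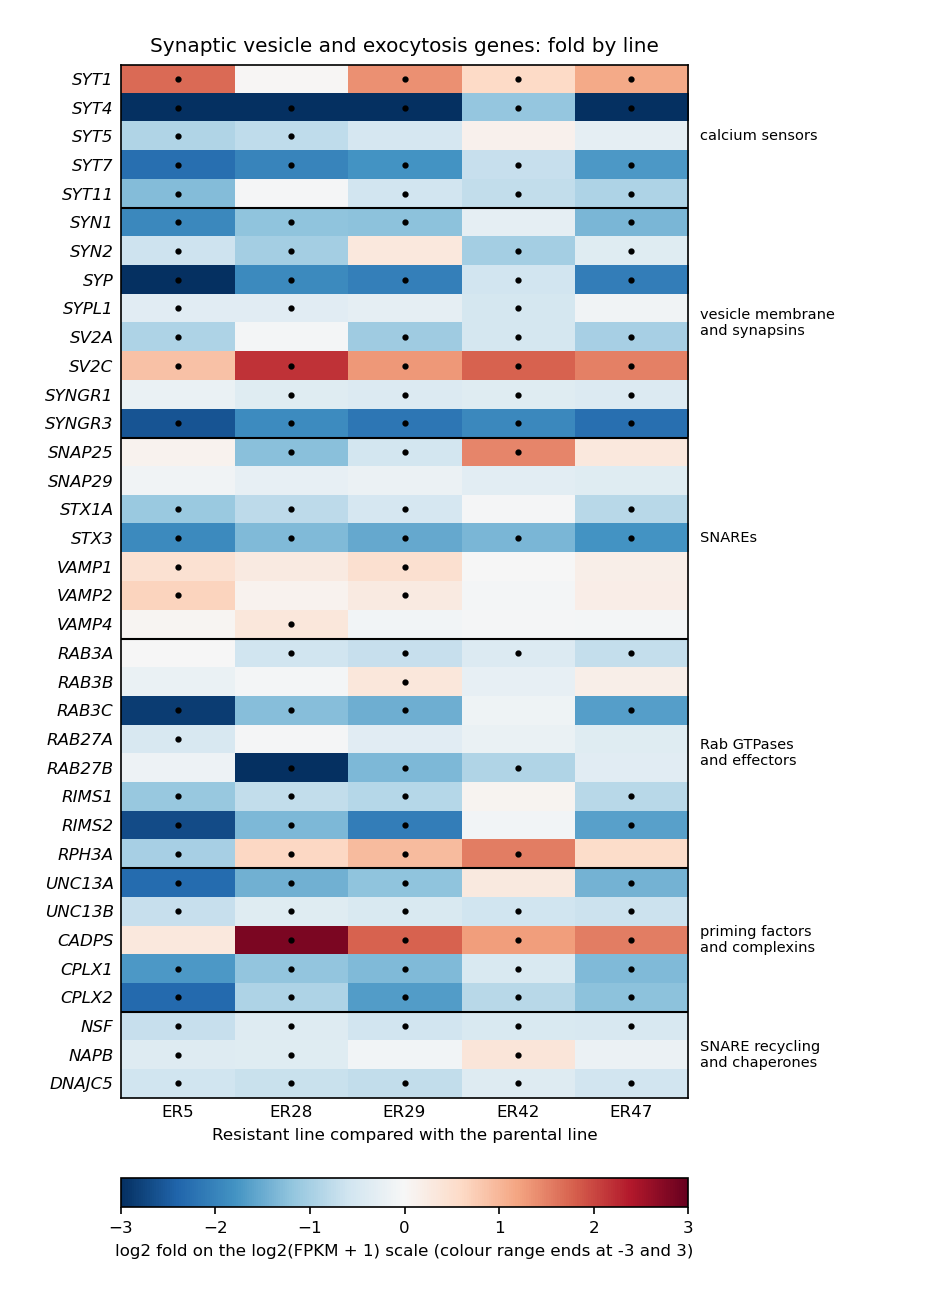
Log2 fold against the parental line (colour) for the 36 tested genes in rows, grouped by role, in ER5, ER28, ER29, ER42 and ER47 in columns; colours end at -3 and 3, and a dot marks an adjusted p under 0.05. Lower folds fill most rows, SV2C is higher in every column, and the ER42 column is paler in most rows, with a median of -0.29.

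Synaptotagmins are vesicle proteins that bind calcium or membranes through C2 domains. SYT1 (ENSG00000067715, chromosome 12), the fast calcium sensor of transmitter release, was higher in 4 lines, while SYT4 and SYT7 were lower in all 5 and SYT11 in 4. SYT4 (ENSG00000132872, chromosome 18), a form that binds calcium weakly and sits on dense core vesicles, had 6.33, 4.44 and 6.21 FPKM in ER5, 11, 8.1 and 6.55 in ER28, 9.29, 8.9 and 6.7 in ER29, 7.4, 8.07 and 11.2 in ER47 and 38.2, 39.6 and 36.9 in ER42, against 88.7, 85.4 and 87.6 in the parental line. It was the most abundant of the 5 synaptotagmins in the parental line, and every resistant library was below every parental one. The folds were -3.74 ± 0.17 in ER5, -3.23 ± 0.17 in ER28, -3.26 ± 0.17 in ER29, -3.18 ± 0.17 in ER47 and -1.17 ± 0.17 in ER42, with adjusted p of 9.41e-05 in ER42 and 2.77e-09 or lower elsewhere. ER42 had the most SYT4 of the resistant lines.

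SYT7 (ENSG00000011347, chromosome 11), a slow sensor of high calcium affinity, had 0.199, 0.364 and 0.168 FPKM in ER5, 0.692, 0.392 and 0.46 in ER28, 0.954, 0.538 and 0.736 in ER29, 0.807, 0.885 and 0.747 in ER47 and 3.65, 3.47 and 1.42 in ER42, against 5.28, 4.54 and 5.15 in the parental line. ER42 replicate 3 was below replicates 1 and 2, and no resistant library overlapped the parental ones. The folds were -2.27 ± 0.20 in ER5, -1.99 ± 0.20 in ER28, -1.79 ± 0.20 in ER29, -1.72 ± 0.20 in ER47 and -0.70 ± 0.20 in ER42, with adjusted p between 1.84e-07 and 0.0118. Without ER42 replicate 3 the ER42 fold was -0.39, with an adjusted p of 0.0409, and with ER42 and the parental line alone in the fit the adjusted p was 0.082.

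SYT1 averaged 134 ± 13.4 FPKM in ER5, 41.4 ± 4.51 in ER28, 106 ± 9.45 in ER29, 90.9 ± 16.6 in ER47 and 62.2 ± 3.63 in ER42, against 40.7 ± 3.96 in the parental line (SD, n = 3 each). All 3 libraries of ER5, ER29, ER42 and ER47 were above every parental library, and ER28 overlapped the parental range. The folds were 1.70 ± 0.13 in ER5, 1.37 ± 0.13 in ER29, 1.13 ± 0.13 in ER47 and 0.60 ± 0.13 in ER42, with adjusted p of 0.00146 or lower, and 0.03 ± 0.13 in ER28 (adjusted p = 0.907).

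SYT11, a synaptotagmin that lacks calcium binding, averaged 24.2 ± 3.95 FPKM in ER5, 59.8 ± 2.21 in ER28, 40.9 ± 4.74 in ER29, 31.5 ± 2.19 in ER47 and 36.5 ± 4.35 in ER42, against 60.8 ± 0.626 in the parental line (SD, n = 3 each). It was lower in every line but ER28, with folds from -1.31 in ER5 to -0.57 in ER29, and stood at -0.03 ± 0.11 in ER28 (adjusted p = 0.89). Under quantile normalisation the ER29 fold was -0.33 (adjusted p = 0.0111). SYT5, another synaptotagmin, was low, at most 2.41 FPKM, and was lower in ER5 (-0.90 ± 0.28, adjusted p = 0.0136) and ER28 (-0.76 ± 0.28, adjusted p = 0.0463). The ER28 call was lost without parental replicates 2 or 3, ER5 replicates 1, 2 or 3, ER28 replicates 2 or 3, ER29 replicates 2 or 3 or ER42 replicates 1, 2 or 3, or with no filter on low values or under median-of-ratios scaling (folds -0.76 to -0.65, adjusted p = 0.0509 to 0.144). ER47 replicate 1 held that highest SYT5 value, while replicates 2 and 3 were at 0.417 and 0.395. Without it SYT5 was called lower also in ER29 (fold -0.50, adjusted p = 0.0319), the ER47 fold was -0.70 (adjusted p = 0.0112) and the mean fold of the 5 lines -0.55 (adjusted p = 0.00427), against -0.46 with it (adjusted p = 0.0876). Quantile normalisation gave a called mean fold of -0.60 (adjusted p = 0.045).

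The make-up of the 5 synaptotagmin transcripts shifted. As a share of their summed FPKM, SYT1 made up 81.4% ± 2.89 in ER5, 37.4% ± 3.27 in ER28, 67.8% ± 1.87 in ER29, 67.9% ± 6.03 in ER47 and 44.1% ± 3.42 in ER42, against 20.8% ± 1.39 in the parental line. SYT4 made up 3.43% ± 0.479 in ER5, 7.69% ± 1.74 in ER28, 5.26% ± 0.436 in ER29, 6.83% ± 2.34 in ER47 and 27.1% ± 0.492 in ER42, against 44.7% ± 0.616 in the parental line. SYT11 was the largest in ER28, at 54.1% ± 3.36. The summed level of the 5 was 164 FPKM in ER5, 111 in ER28, 157 in ER29, 133 in ER47 and 141 in ER42, against 195 in the parental line. These shares are descriptions of the same values and carry no test of their own.

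**Figure D2:**
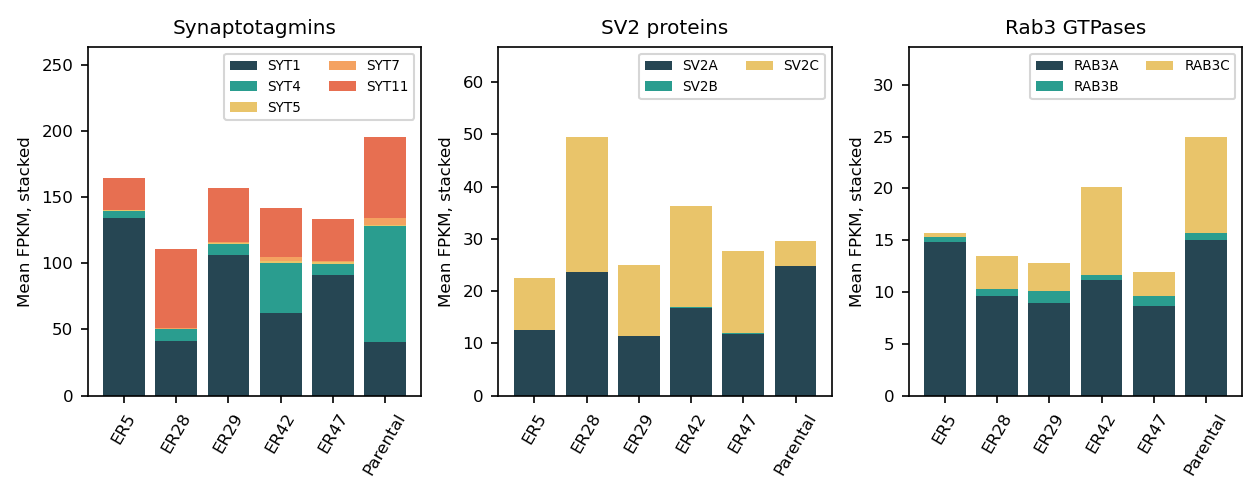
Stacked mean FPKM over 3 libraries (vertical axis) of the 5 synaptotagmins, the 3 SV2 glycoproteins and the 3 Rab3 GTPases in ER5, ER28, ER29, ER42, ER47 and the parental line (horizontal axis). SYT4 is 44.7% of the synaptotagmin bar in the parental line and at most 27.1% in a resistant line, and the SV2C part is 43.8% or more of the SV2 bar in each resistant line, against 16.4% in the parental line.

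Of the 8 tested membrane proteins and synapsins, 1 was higher and 7 were lower for the mean of the 5 lines, beside the 23.9% and 28.9% of all tested genes. SYP (ENSG00000102003, chromosome X), synaptophysin, an abundant vesicle membrane protein, had 1.06, 1.27 and 1.03 FPKM in ER5, 4.42, 3.87 and 3.34 in ER28, 3.94, 3.97 and 2.45 in ER29, 3.48, 3.22 and 3.43 in ER47 and 14.2, 12.2 and 8.19 in ER42, against 16.6, 18.8 and 16.6 in the parental line. ER5 was lowest, ER42 was highest among the resistant lines, and no resistant library overlapped the parental ones. The folds were -3.11 ± 0.17 in ER5, -1.91 ± 0.17 in ER28, -2.06 ± 0.17 in ER29, -2.07 ± 0.17 in ER47 and -0.58 ± 0.17 in ER42, with adjusted p of 0.0131 in ER42 and 5.55e-07 or lower elsewhere. Without ER42 replicate 3 the ER42 fold was -0.37 with an adjusted p of 0.0685, and without parental replicate 2 it was -0.52 with 0.0518, so the call there rests on single libraries. With ER42 and the parental line alone in the fit the adjusted p was 0.0534.

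SYNGR3 (ENSG00000127561, chromosome 16), a synaptogyrin and a relative of synaptophysin, had 0.275, 0.69 and 0.433 FPKM in ER5, 1.42, 1.42 and 1.25 in ER28, 0.887, 0.858 and 1.13 in ER29, 0.822, 0.701 and 0.979 in ER47 and 1.62, 1.18 and 1.08 in ER42, against 8.0, 8.68 and 6.72 in the parental line. No resistant library overlapped the parental ones. The folds were -2.59 ± 0.13 in ER5, -1.89 ± 0.13 in ER28, -2.16 ± 0.13 in ER29, -2.26 ± 0.13 in ER47 and -1.94 ± 0.13 in ER42, with adjusted p of 7.68e-08 or lower. SYNGR1, another synaptogyrin, was lower with folds of -0.42 ± 0.13 to -0.37 ± 0.13 in the 4 lines where it was called and -0.21 ± 0.13 in ER5 (adjusted p = 0.196). Single libraries or settings decided the SYNGR1 calls. In ER28 the call was lost without parental replicates 2 or 3 or ER28 replicates 1, 2 or 3, or with no filter on low values (folds -0.40 to -0.33, adjusted p = 0.0535 to 0.115). In ER29 it was lost without parental replicates 2 or 3 or ER29 replicate 3 (folds -0.38 to -0.31, adjusted p = 0.0516 to 0.0834). In ER42 it was lost without parental replicates 2 or 3 or ER42 replicate 3, or with no filter on low values or with only the compared pair in the fit (folds -0.37 to -0.26, adjusted p = 0.0611 to 0.152). In ER47 it was lost without parental replicate 3 or ER47 replicate 3 (folds -0.37 to -0.33, adjusted p = 0.0582 to 0.0703). For the mean of the 5 lines it was lost without parental replicate 3 (fold -0.31, adjusted p = 0.0539). SYPL1, a synaptophysin relative found in many tissues, was lower in ER5, ER28 and ER42, at folds of -0.35, -0.34 and -0.52. It gained a call in ER29 without parental replicate 2 or ER5 replicate 3, or in a fit of protein-coding genes alone (folds -0.35 to -0.27, adjusted p = 0.0377 to 0.0493). Its ER5 call was lost without parental replicate 1 or ER5 replicate 3, or under quantile normalisation or with only the compared pair in the fit (folds -0.35 to -0.22, adjusted p = 0.0851 to 0.125). The ER28 call of SYPL1 was lost without parental replicates 1 or 3 or ER28 replicates 1 or 2, or with no filter on low values, under median-of-ratios scaling or under quantile normalisation (folds -0.35 to -0.24, adjusted p = 0.0575 to 0.163). Its call for the mean of the 5 lines was lost without parental replicate 1, or under quantile normalisation (folds -0.23 to -0.20, adjusted p = 0.0872 to 0.0929).

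SV2C (ENSG00000122012, chromosome 5), one of the SV2 glycoproteins of synaptic and dense core vesicles, had 7.6, 10.7 and 11.3 FPKM in ER5, 23.6, 32.4 and 21.5 in ER28, 11.6, 15.9 and 13.5 in ER29, 15.6, 16.9 and 14.8 in ER47 and 15.1, 20.9 and 22.3 in ER42, against 4.62, 4.87 and 5.13 in the parental line. ER28 was highest and ER5 lowest among the resistant lines. The folds were 0.87 ± 0.17 in ER5, 2.17 ± 0.17 in ER28, 1.31 ± 0.17 in ER29, 1.51 ± 0.17 in ER47 and 1.78 ± 0.17 in ER42, with adjusted p of 0.000499 or lower. The 20 tested neighbours of SV2C on chromosome 5 had median folds of 0.25 to 0.44 over the 5 lines, and their part in the result was not tested. SV2A, the form found in most neurons and the binding site of levetiracetam, averaged 12.6 ± 1.48 FPKM in ER5, 23.6 ± 2.16 in ER28, 11.4 ± 1.17 in ER29, 11.8 ± 0.755 in ER47 and 16.8 ± 1.88 in ER42, against 24.7 ± 0.0878 in the parental line (SD, n = 3 each). It was lower in ER5, ER29, ER42 and ER47 and stood at -0.07 ± 0.10 in ER28 (adjusted p = 0.649). SV2C made up 43.8% ± 7.89 in ER5, 51.8% ± 7.59 in ER28, 54.3% ± 6.36 in ER29, 56.9% ± 1.24 in ER47 and 53.2% ± 7.31 in ER42, against 16.4% ± 0.76 in the parental line, as a share of the 3 SV2 transcripts.

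Synapsins coat vesicles and hold them in the reserve pool. SYN1 (ENSG00000008056, chromosome X) averaged 0.437 ± 0.0889 FPKM in ER5, 1.4 ± 0.156 in ER28, 1.39 ± 0.464 in ER29, 1.14 ± 0.375 in ER47 and 3.73 ± 1.47 in ER42, against 4.49 ± 0.337 in the parental line (SD, n = 3 each). It was lower in 4 lines, with folds from -1.94 ± 0.21 in ER5 to -1.20 ± 0.21 in ER28, and stood at -0.26 ± 0.21 in ER42 (adjusted p = 0.327), where its libraries at 5.1, 3.93 and 2.17 FPKM spanned the parental range of 4.29 to 4.88. That fold was -0.00125 without ER42 replicate 3. SYN2 was lower in ER5, ER28, ER42 and ER47, at -0.63, -1.02, -1.01 and -0.37. In ER29, with 19.7, 25 and 20.8 FPKM, SYN2 lay above the parental 17 to 17.3, at a fold of 0.32 ± 0.14 (adjusted p = 0.0614). SYN2 was called higher in ER29 without ER28 replicate 2, ER29 replicate 1 or ER47 replicate 3, or at a filter of FPKM 5, under quantile normalisation, in a fit of protein-coding genes alone or with only the compared pair in the fit (folds 0.32 to 0.45, adjusted p = 0.0129 to 0.0497). The ER47 call of SYN2 was lost without parental replicates 1, 2 or 3 or ER47 replicate 3, or with no filter on low values, under median-of-ratios scaling or under quantile normalisation (folds -0.38 to -0.23, adjusted p = 0.0555 to 0.189).

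The repressor REST binds a DNA element named RE1 near many neuronal genes and holds them silent outside neurons. Promoter windows of 300 bases, from 250 before to 50 after each start site, were searched on both strands for CAGCACCNNGGACAGC, 2 half-sites of the element joined by 2 free letters, with at most 2 mismatches in the 14 fixed letters. RefSeq on GRCh38.p14 gave 50 windows for 32 of the 39 genes, and 3 of these 50 windows, from the 2 genes SYN1 and RPH3A, held a match, as did 283 of all 34943 windows (0.81%). Both are shown, since SYN1 was lower in 4 lines and RPH3A higher in 3, with the match in capitals and the rest in lower case, 5′ to 3′ on the gene's strand.
SYN1, chrX:47619808-47620107, minus strand: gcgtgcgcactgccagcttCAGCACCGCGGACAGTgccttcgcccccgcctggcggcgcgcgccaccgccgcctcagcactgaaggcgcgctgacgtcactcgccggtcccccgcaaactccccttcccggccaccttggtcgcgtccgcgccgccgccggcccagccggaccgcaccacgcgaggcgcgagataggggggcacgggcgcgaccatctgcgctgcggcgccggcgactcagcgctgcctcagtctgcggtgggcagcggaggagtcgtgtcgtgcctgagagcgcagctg
RPH3A, chr12:112791498-112791797, plus strand: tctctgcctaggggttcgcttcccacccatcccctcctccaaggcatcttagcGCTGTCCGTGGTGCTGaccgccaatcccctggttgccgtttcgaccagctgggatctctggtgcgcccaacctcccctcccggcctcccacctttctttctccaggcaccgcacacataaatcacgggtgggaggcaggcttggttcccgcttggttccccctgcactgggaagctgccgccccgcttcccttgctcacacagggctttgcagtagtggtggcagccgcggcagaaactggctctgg
The SYN1 match has 1 mismatch and begins 231 bases before the start site. The RPH3A match has no mismatch, lies on the opposite strand and begins 197 bases before this start site. It also falls in the window of an overlapping RPH3A start, so the same site is counted in both windows. A further RPH3A window, chr12:112574986-112575285, had 5 mismatches in its best match. A match describes letters in a window and not a bound site, and its absence elsewhere says nothing of REST.

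REST itself had 29.9, 32.5 and 29.9 FPKM in ER5, 29, 26.4 and 27.9 in ER28, 27.2, 29.4 and 29.9 in ER29, 29.8, 28.1 and 27.4 in ER47 and 15.3, 16.8 and 25.1 in ER42, against 13.1, 14.5 and 13.4 in the parental line. All 15 resistant libraries were above every parental one, and ER42 replicates 1 and 2 were the nearest to it. The folds were 1.12 ± 0.12 in ER5, 0.97 ± 0.12 in ER28, 1.02 ± 0.12 in ER29, 1.00 ± 0.12 in ER47 and 0.42 ± 0.12 in ER42, with adjusted p of 0.0126 in ER42 and 1.93e-05 or lower elsewhere. Without ER42 replicate 3 the ER42 fold was 0.22 (adjusted p = 0.0252), and with only ER42 and the parental line in the fit the call was lost (adjusted p = 0.107). The part of REST in any result here was not tested.

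Of the 7 SNARE genes, 1 was higher, 2 were lower and 4 were neither for the mean of the 5 lines, near the 23.9% higher and 28.9% lower of all tested genes, and their median fold of 0.02 was the same as over all tested genes. STX3 (ENSG00000166900, chromosome 11), a syntaxin of regulated secretion in neurons and epithelia, had 5.06, 3.9 and 4.67 FPKM in ER5, 6.31, 7.67 and 8.06 in ER28, 6.6, 5.45 and 6.6 in ER29, 4.47, 4.84 and 5.7 in ER47 and 7.98, 6.82 and 6.13 in ER42, against 20.4, 19.9 and 18.8 in the parental line. Every parental library was at 18.8 FPKM or more and every resistant one at 8.06 or less. The folds were -1.91 ± 0.12 in ER5, -1.32 ± 0.12 in ER28, -1.52 ± 0.12 in ER29, -1.79 ± 0.12 in ER47 and -1.38 ± 0.12 in ER42, with adjusted p of 6.27e-07 or lower. STX1A, the plasma membrane syntaxin of synapses, averaged 8.08 ± 0.708 FPKM in ER5, 10.3 ± 1.08 in ER28, 12.8 ± 0.958 in ER29, 9.9 ± 0.623 in ER47 and 18.2 ± 3.61 in ER42, against 18.5 ± 0.395 in the parental line (SD, n = 3 each). It was lower in ER5, ER28, ER29 and ER47, with folds from -1.11 to -0.50, and stood at -0.04 ± 0.12 in ER42 (adjusted p = 0.82), or 0.12 (adjusted p = 0.321) without ER42 replicate 3.

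SNAP25 (ENSG00000132639, chromosome 20), the plasma membrane partner of syntaxin, had 17.3, 18 and 18.4 FPKM in ER5, 6.99, 6.86 and 5.34 in ER28, 12.3, 12.5 and 8.82 in ER29, 23.3, 22.5 and 17.9 in ER47 and 65, 56.9 and 29.2 in ER42, against 16.4, 16.2 and 17.3 in the parental line. ER42 was above every other library of the series, ER28 and ER29 were below the parental range, ER47 was above it and ER5 was at or just above its upper end. The folds were 0.10 ± 0.22 in ER5, -1.26 ± 0.22 in ER28, -0.55 ± 0.22 in ER29, 0.33 ± 0.22 in ER47 and 1.47 ± 0.22 in ER42. The adjusted p was 0.000103 in ER42, 0.000337 in ER28 and 0.0479 in ER29, and it was 0.736 in ER5 and 0.24 in ER47. The ER29 call was near the threshold and was lost without parental replicates 1, 2 or 3, ER5 replicates 1, 2 or 3, ER28 replicates 1 or 2, ER29 replicates 1, 2 or 3 or ER47 replicates 1 or 2, or with no filter on low values or under quantile normalisation (folds -0.63 to -0.40, adjusted p = 0.0534 to 0.189). SNAP25 was called higher in ER47 without ER42 replicate 3, or with only the compared pair in the fit (fold 0.33, adjusted p = 0.0395 to 0.0468). ER42 replicate 3 lay below the other ER42 libraries and above every library of the other lines, and without it the ER42 fold was 1.81. The 20 tested neighbours of SNAP25 had a median fold of 0.28 in ER42, and their part in the result was not tested. Over the 36 genes and 5 lines, 22 of 180 such medians lay beyond 0.25 in either direction, and not all are printed.

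VAMP2, synaptobrevin 2, the vesicle SNARE of most synapses, averaged 37.3 ± 5.38 FPKM in ER5, 24.5 ± 0.751 in ER28, 27.6 ± 2.01 in ER29, 26.2 ± 0.142 in ER47 and 21.9 ± 2.08 in ER42, against 22.9 ± 1.55 in the parental line (SD, n = 3 each). It was higher in ER5 (0.67 ± 0.09, adjusted p = 1.82e-05) and ER29 (0.26 ± 0.09, adjusted p = 0.0289). The ER29 call was lost without parental replicates 2 or 3 or ER29 replicates 1 or 2, or with no filter on low values (folds 0.21 to 0.26, adjusted p = 0.0507 to 0.108). For the mean of the 5 lines the call was lost without parental replicates 2 or 3 (folds 0.20 to 0.21, adjusted p = 0.0681 to 0.0752). VAMP2 was called higher in ER47 without ER5 replicate 3, or under quantile normalisation or with only the compared pair in the fit (folds 0.19 to 0.35, adjusted p = 0.00421 to 0.0445). Under quantile normalisation the VAMP2 fold was 0.40 in ER29 and 0.35 for the mean of the 5 lines. VAMP1, its close relative, was higher in ER5 and ER29, at 0.47 ± 0.17 and 0.48 ± 0.17, with adjusted p of 0.0274 and 0.0246. The VAMP1 call in ER5 was lost without parental replicates 2 or 3 or ER5 replicates 1 or 2, or with no filter on low values, under quantile normalisation or with only the compared pair in the fit (folds 0.37 to 0.47, adjusted p = 0.0536 to 0.109). That in ER29 was lost without parental replicates 2 or 3 or ER29 replicates 1 or 3, or under quantile normalisation (folds 0.35 to 0.47, adjusted p = 0.057 to 0.138). A call for the mean of the 5 lines was gained without ER5 replicate 3, ER28 replicate 2 or ER47 replicate 3 (fold 0.31, adjusted p = 0.0333 to 0.0448). VAMP4, a SNARE of the trans-Golgi network and endosomes, was higher in ER28 alone (0.34 ± 0.12, adjusted p = 0.0317), where its 20 neighbours on chromosome 1 had a median fold of 0.39. That call was lost without parental replicates 1 or 2 or ER28 replicate 3, or with no filter on low values or with only the compared pair in the fit (folds 0.25 to 0.35, adjusted p = 0.0567 to 0.139). SNAP29, which acts in endosome and autophagosome fusion, was called in no line, with folds of -0.35 to -0.11. It was called lower in ER47 without ER28 replicate 2, ER29 replicate 1, ER42 replicate 3 or ER47 replicate 2, or at a filter of FPKM 5, in a fit of protein-coding genes alone or with only the compared pair in the fit (folds -0.42 to -0.35, adjusted p = 0.0326 to 0.0479).

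Among the Rab GTPases and their effectors, 1 of 8 was higher and 5 were lower for the mean of the 5 lines, where 23.9% and 28.9% of all tested genes were. RAB3C (ENSG00000152932, chromosome 5), one of the Rab3 proteins of secretory vesicles, had 0.471, 0.515 and 0.245 FPKM in ER5, 2.69, 3.5 and 3.4 in ER28, 2.77, 2.05 and 3.41 in ER29, 1.75, 3.1 and 2.04 in ER47 and 10.8, 8.49 and 6.34 in ER42, against 9.7, 9.06 and 8.86 in the parental line. ER5 was lowest, and ER42 spanned the parental range. The folds were -2.86 ± 0.18 in ER5, -1.29 ± 0.18 in ER28, -1.46 ± 0.18 in ER29, -1.65 ± 0.18 in ER47 and -0.12 ± 0.18 in ER42, with adjusted p of 6.77e-05 or lower in 4 lines and 0.623 in ER42. Left without replicate 3, ER42 had a RAB3C fold of 0.05 (adjusted p = 0.849). RAB3A, the main Rab3 of synaptic vesicles, was lower in ER28, ER29, ER42 and ER47, at -0.59, -0.69, -0.41 and -0.73, and stood at -0.02 ± 0.11 in ER5 (adjusted p = 0.881). As a share of the 3 Rab3 transcripts, RAB3C was 2.58% ± 0.794 in ER5, 23.7% ± 2.83 in ER28, 21.3% ± 4.86 in ER29, 19.1% ± 4.32 in ER47 and 42.1% ± 2.27 in ER42, against 36.9% ± 0.809 in the parental line.

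RAB27B, a GTPase of dense core vesicle docking, averaged 8.21 ± 1.81 FPKM in ER5, 0.222 ± 0.0999 in ER28, 3.04 ± 0.955 in ER29, 6.97 ± 1.26 in ER47 and 5.08 ± 3.42 in ER42, against 9.05 ± 0.489 in the parental line (SD, n = 3 each). In ER28 it was at 0.111, 0.251 and 0.304 FPKM, with a fold of -3.04 ± 0.33 (adjusted p = 5.38e-06), and in ER29 at 3.67, 3.5 and 1.94, with a fold of -1.34 ± 0.33 (adjusted p = 0.00351). The ER42 libraries were spread, at 8.42, 5.23 and 1.58 FPKM, and the ER42 call, at a fold of -0.91 ± 0.33 (adjusted p = 0.0414), was lost without parental replicates 1, 2 or 3 or ER42 replicates 2 or 3, or with a pseudocount of 0.1, with no filter on low values, under quantile normalisation or with only the compared pair in the fit (folds -1.11 to -0.39, adjusted p = 0.0514 to 0.198). RAB27A was lower in ER5 alone (-0.49 ± 0.16, adjusted p = 0.0206), and RAB3B, at most 1.38 FPKM, was higher in ER29 alone (0.33 ± 0.11, adjusted p = 0.0196). RAB3B passed the filter only through the ER29 libraries, so it had to be high there and this call is not independent of the filter. The RAB27A call was lost without parental replicates 1 or 3 or ER5 replicate 3 (folds -0.48 to -0.39, adjusted p = 0.0537 to 0.0874). RAB27A was called lower in ER47 without ER47 replicate 3 (fold -0.55, adjusted p = 0.0111), in ER29 with only the compared pair in the fit (fold -0.34, adjusted p = 0.0226) and for the mean of the 5 lines without ER42 replicate 3 or ER47 replicate 3, or in a fit of protein-coding genes alone (folds -0.32 to -0.29, adjusted p = 0.0237 to 0.0473). The RAB3B call was lost without parental replicate 1, or under quantile normalisation (folds 0.10 to 0.30, adjusted p = 0.076 to 0.524), and under quantile normalisation RAB3B was called lower in ER42 (fold -0.49, adjusted p = 0.00428).

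RIM proteins are Rab3 effectors that build the release site and recruit calcium channels. RIMS2 (ENSG00000176406, chromosome 8) had 0.111, 0.118 and 0.286 FPKM in ER5, 2.19, 2.65 and 1.14 in ER28, 0.693, 1.03 and 0.624 in ER29, 1.88, 0.954 and 1.5 in ER47 and 6.19, 9.13 and 3.86 in ER42, against 5.99, 6.28 and 7.14 in the parental line. Again ER5 was lowest, and ER42 spanned the parental range. The folds were -2.67 ± 0.24 in ER5, -1.35 ± 0.24 in ER28, -2.07 ± 0.24 in ER29, -1.63 ± 0.24 in ER47 and -0.08 ± 0.24 in ER42, with adjusted p of 0.000435 or lower in 4 lines and 0.825 in ER42. RIMS1, at lower levels, was likewise lowest in ER5, with 0.404 to 3.09 FPKM over the resistant libraries and 2.13 to 2.56 in the parental ones, folds of -1.13 in ER5 to -0.73 in ER28, and 0.09 ± 0.13 in ER42 (adjusted p = 0.595). Without ER42 replicate 3 the ER42 folds were 0.19 for RIMS2 (adjusted p = 0.532) and 0.23 for RIMS1 (adjusted p = 0.167).

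RPH3A (ENSG00000089169, chromosome 12), rabphilin, another Rab3 effector, was higher in 3 lines and lower in ER5. It averaged 0.566 ± 0.227 FPKM in ER5, 3.84 ± 0.95 in ER28, 5.24 ± 1.69 in ER29, 3.65 ± 1.16 in ER47 and 8.16 ± 1.75 in ER42, against 2.13 ± 0.332 in the parental line (SD, n = 3 each). ER5 lay below every parental library and the other 4 lines above them. The folds were -1.01 ± 0.22 in ER5, 0.61 ± 0.22 in ER28, 0.96 ± 0.22 in ER29, 0.55 ± 0.22 in ER47 and 1.53 ± 0.22 in ER42, with adjusted p of 0.00138 in ER5, 0.0435 in ER28, 0.0022 in ER29, 0.0574 in ER47 and 9.07e-05 in ER42. The ER28 call was lost without parental replicates 1, 2 or 3, ER5 replicate 2, ER28 replicates 1 or 3, ER29 replicate 2 or ER42 replicate 3, or with a pseudocount of 0.1, with no filter on low values or under quantile normalisation (folds 0.46 to 0.80, adjusted p = 0.0501 to 0.174). The call for the mean of the 5 lines was lost without parental replicates 1 or 3, or with a pseudocount of 0.1 or under quantile normalisation (folds 0.43 to 0.56, adjusted p = 0.0574 to 0.0966). One in ER47 was gained without ER29 replicates 1 or 3 or ER47 replicate 1, or under median-of-ratios scaling or in a fit of protein-coding genes alone (folds 0.55 to 0.67, adjusted p = 0.0327 to 0.0487). Its overlapping promoter windows held the unmismatched RE1 match printed above, and the window of SYN1, which was lower in 4 lines, held the other.

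**Figure D3:**
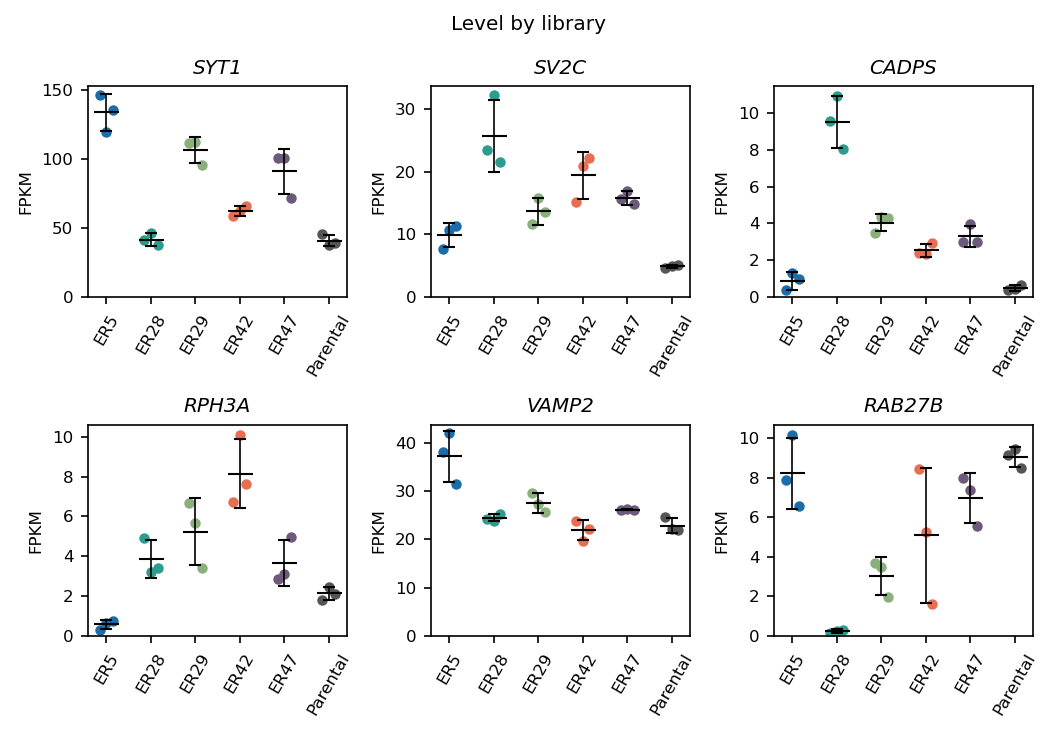
FPKM (vertical axis) in each library of ER5, ER28, ER29, ER42, ER47 and the parental line (horizontal axis) for SYT1, SV2C, CADPS, RPH3A, VAMP2 and RAB27B; points are libraries, bars are means of 3 and error bars are SD. SV2C is above the parental line in all 15 resistant libraries, CADPS is highest in ER28, at 8.06 to 10.9, and RAB27B is near 0 in ER28, at 0.111 to 0.304.

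Of the 5 tested priming factors and complexins, 1 was higher and 4 were lower for the mean of the 5 lines (23.9% and 28.9% of all tested genes), with a median fold of -1.21. CADPS (ENSG00000163618, chromosome 3), a CAPS protein that primes dense core vesicles, had 0.341, 1.27 and 0.985 FPKM in ER5, 9.59, 10.9 and 8.06 in ER28, 3.49, 4.35 and 4.29 in ER29, 2.98, 3.97 and 2.97 in ER47 and 2.36, 2.31 and 2.93 in ER42, against 0.379, 0.394 and 0.663 in the parental line. ER28 was highest, all libraries of ER28, ER29, ER42 and ER47 were above the parental ones, and ER5 overlapped them. The folds were 0.31 ± 0.18 in ER5, 2.83 ± 0.18 in ER28, 1.77 ± 0.18 in ER29, 1.54 ± 0.18 in ER47 and 1.26 ± 0.18 in ER42, with adjusted p of 6.46e-05 or lower in the 4 lines and 0.164 in ER5. The ER5 fold was 0.53 (adjusted p = 0.0108) without ER5 replicate 1.

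UNC13B (ENSG00000198722, chromosome 9), a Munc13 protein that opens syntaxin for priming, had 8.0, 7.6 and 7.19 FPKM in ER5, 10.3, 9.34 and 9.68 in ER28, 9.51, 8.66 and 9.38 in ER29, 7.26, 8.91 and 7.34 in ER47 and 8.31, 7.91 and 8.08 in ER42, against 12.8, 12.5 and 13.3 in the parental line. All 15 resistant libraries lay below the parental range. The folds were -0.69 ± 0.07 in ER5, -0.36 ± 0.07 in ER28, -0.45 ± 0.07 in ER29, -0.66 ± 0.07 in ER47 and -0.61 ± 0.07 in ER42, with adjusted p of 0.00134 or lower. UNC13A, the main Munc13 of excitatory synapses, varied far more, with 0.255, 0.485 and 0.349 FPKM in ER5, 1.74, 1.59 and 1.16 in ER28, 1.87, 1.89 and 1.93 in ER29, 1.54, 1.47 and 1.55 in ER47 and 10.1, 9.55 and 3.86 in ER42, against 5.44, 6.32 and 5.42 in the parental line. It was lower in ER5, ER28, ER29 and ER47, with folds from -2.30 ± 0.22 to -1.21 ± 0.22, and stood at 0.30 ± 0.22 in ER42 (adjusted p = 0.3). Without ER42 replicate 3 the ER42 fold was 0.69 and was called higher (adjusted p = 0.000585).

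CPLX1 (ENSG00000168993, chromosome 4), a complexin, had 0.255, 0.487 and 0.501 FPKM in ER5, 1.13, 1.08 and 0.909 in ER28, 0.83, 1.02 and 0.743 in ER29, 0.743, 0.817 and 1.0 in ER47 and 2.55, 2.51 and 2.08 in ER42, against 3.28, 4.06 and 3.68 in the parental line. The folds were -1.73 ± 0.12 in ER5, -1.19 ± 0.12 in ER28, -1.33 ± 0.12 in ER29, -1.33 ± 0.12 in ER47 and -0.47 ± 0.12 in ER42, with adjusted p of 0.00579 in ER42 and 1.98e-06 or lower elsewhere. CPLX2 (ENSG00000145920, chromosome 5), the complexin of many endocrine cells, had 0.192, 0.398 and 0.334 FPKM in ER5, 3.05, 2.19 and 2.15 in ER28, 1.06, 1.17 and 0.938 in ER29, 1.8, 1.12 and 2.64 in ER47 and 3.6, 2.93 and 1.8 in ER42, against 6.14, 5.54 and 5.01 in the parental line. Both complexins were lowest in ER5 and overlapped the parental range in no line. The CPLX2 folds were -2.33 ± 0.20 in ER5, -0.93 ± 0.20 in ER28, -1.67 ± 0.20 in ER29, -1.23 ± 0.20 in ER47 and -0.82 ± 0.20 in ER42, with adjusted p of 0.0039 or lower. The 20 tested neighbours of CPLX2 had a median fold of -0.44 in ER42, and those of CPLX1 0.62 in ER29; the part of these regions in the results was not tested.

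NSF (ENSG00000073969, chromosome 17), the ATPase that takes SNARE bundles apart, had 11.1, 10.2 and 14 FPKM in ER5, 16.3, 12.5 and 15.4 in ER28, 13.3, 11.2 and 14 in ER29, 14.5, 12.5 and 13.7 in ER47 and 15.7, 14.6 and 11.9 in ER42, against 18.6, 21.3 and 18.4 in the parental line. All 15 resistant libraries were below the parental range, and the F test among the lines was not called (adjusted p = 0.277). The folds were -0.69 ± 0.13 in ER5, -0.39 ± 0.13 in ER28, -0.56 ± 0.13 in ER29, -0.49 ± 0.13 in ER47 and -0.45 ± 0.13 in ER42, with adjusted p between 0.000331 and 0.029. The call in ER28 was lost without ER28 replicate 2 (fold -0.28, adjusted p = 0.139), under quantile normalisation (fold -0.30, adjusted p = 0.0882) and with no filter on low values (adjusted p = 0.0572). Without parental replicate 2 it was lost both in ER28 (fold -0.32, adjusted p = 0.111) and in ER42 (fold -0.38, adjusted p = 0.0557), and ER42 lost it also without its replicate 3 (fold -0.34, adjusted p = 0.065).

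DNAJC5 (ENSG00000101152, chromosome 20), the cysteine string protein of vesicles that keeps SNAP25 folded, had 12.7, 12.7 and 13.8 FPKM in ER5, 12.9, 10.8 and 13.6 in ER28, 11.7, 11.6 and 11.5 in ER29, 14, 12.7 and 13.1 in ER47 and 16.1, 15.4 and 14.1 in ER42, against 19, 23.1 and 18.8 in the parental line. No resistant library overlapped the parental ones. The folds were -0.60 ± 0.09 in ER5, -0.66 ± 0.09 in ER28, -0.75 ± 0.09 in ER29, -0.57 ± 0.09 in ER47 and -0.39 ± 0.09 in ER42, with adjusted p of 0.00273 or lower. NAPB (ENSG00000125814, chromosome 20), the neuronal adaptor of NSF, had 4.75, 5.52 and 5.64 FPKM in ER5, 5.32, 6.27 and 4.75 in ER28, 5.39, 8.39 and 6.67 in ER29, 6.06, 6.74 and 6.25 in ER47 and 10.6, 10.1 and 8.17 in ER42, against 7.33, 6.96 and 7.43 in the parental line. ER42 was above the parental range and ER5 and ER28 below it. The folds were 0.36 ± 0.13 in ER42, -0.39 ± 0.13 in ER5 and -0.36 ± 0.13 in ER28, with adjusted p of 0.0389, 0.0194 and 0.0406. The NAPB call in ER42 was lost without parental replicates 1, 2 or 3 or ER42 replicates 1 or 2, or with no filter on low values (folds 0.29 to 0.37, adjusted p = 0.0687 to 0.129). That in ER5 was lost without parental replicates 1 or 3 or ER5 replicate 1 (folds -0.38 to -0.33, adjusted p = 0.05 to 0.077). That in ER28 was lost without parental replicates 1, 2 or 3, ER28 replicates 1 or 3 or ER29 replicate 3, or with no filter on low values (folds -0.39 to -0.28, adjusted p = 0.0503 to 0.149).

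The resistant lines differed among themselves. By an F test over the 5 lines, 30 of the 36 genes were called, where 52.3% of all tested genes were. Of the 12795 protein-coding genes fitted alone, 8719 were. Among the 36, SYPL1, SYNGR1, SNAP29, VAMP1, RAB27A and NSF were not called. Each line was then set against each of the other 4 resistant lines in the same model, an analysis chosen after the values were seen. A gene is counted where it was called with the same sign against all 4.

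ER42 was above each of the other 4 lines in 12 of the 36 genes, where 3.83% of all tested genes were, and below in 0, where 2.9% were. The 12 were the sensors SYT4 and SYT7, the vesicle proteins SYP and SYN1, the SNAREs SNAP25 and STX1A, the Rab3 protein RAB3C, the release site proteins RIMS1 and RIMS2, UNC13A, CPLX1 and NAPB. The log2 differences, taken as the other line minus ER42, ran from -0.45 for NAPB (against ER29, adjusted p = 0.0153) to -2.74 for RAB3C (against ER5, adjusted p = 5.24e-08). The same 12 were called without ER42 replicate 3, while NAPB was lost without ER29 replicate 1 or ER42 replicates 1 or 2. Set against the parental line, ER42 was lower in SYT4, SYT7, SYP and CPLX1, higher in SNAP25 and NAPB, and not called in SYN1, STX1A, RAB3C, RIMS1, RIMS2 and UNC13A. REST was higher in each of the other 4 lines than in ER42, by 0.55 to 0.69, with adjusted p of 0.00483 or lower. The summed proliferation markers of ER42, at 368 to 440 FPKM, overlapped those of ER28 and were above those of the other 3 resistant lines. The part of either in the result was not tested.

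**Figure D4:**
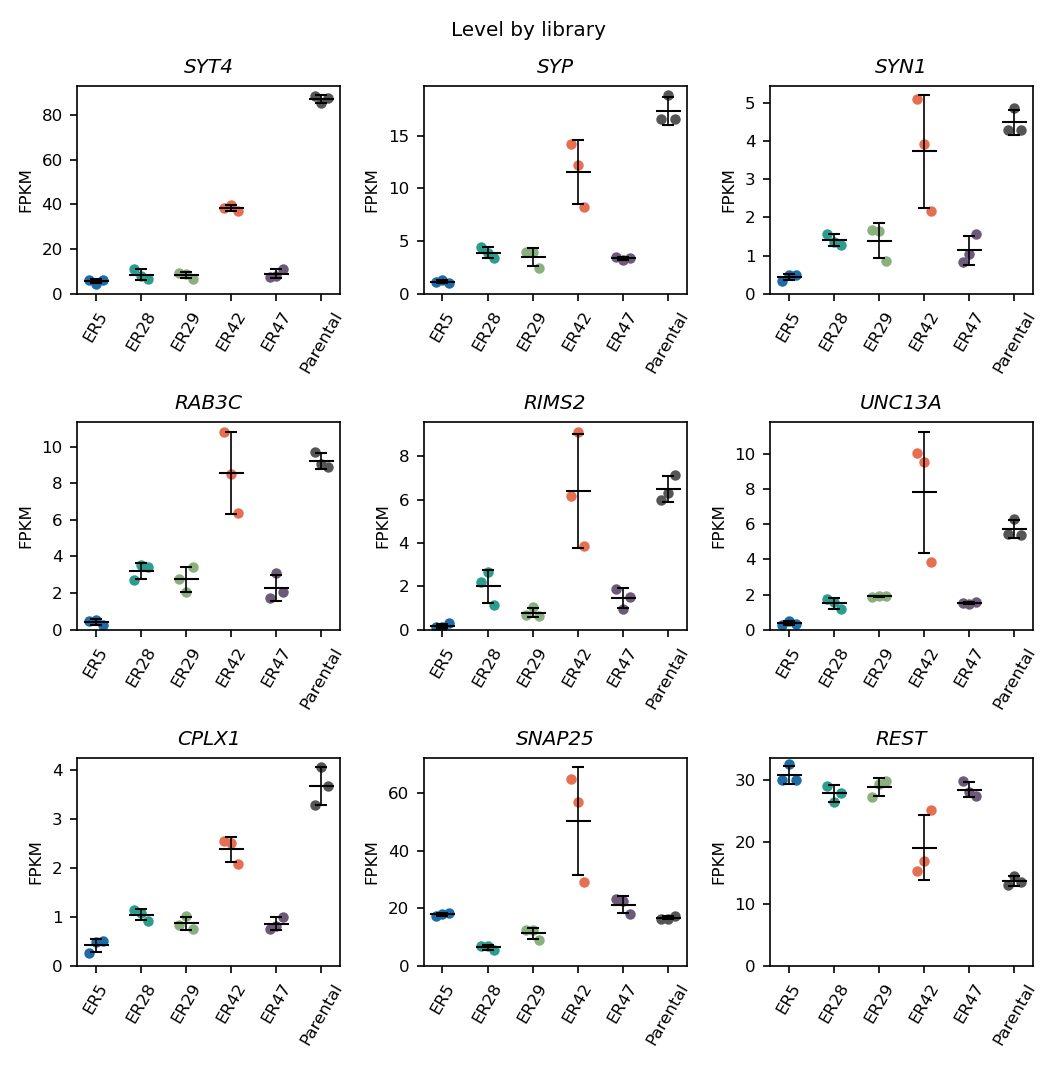
FPKM (vertical axis) in each library of ER5, ER28, ER29, ER42, ER47 and the parental line (horizontal axis) for SYT4, SYP, SYN1, RAB3C, RIMS2, UNC13A, CPLX1, SNAP25 and REST; points are libraries, bars are means of 3 and error bars are SD. ER42 is above the other resistant lines in the 8 vesicle genes and below them in REST, at 15.3, 16.8 and 25.1 FPKM.

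ER5 was below each of the other 4 lines in 8 of the 36 genes, where 4.17% of all tested genes were. These were SYT11, SYP, RAB3C, RPH3A, UNC13A, CADPS, CPLX1 and CPLX2. Without ER5 replicate 1 the count was 5 and over the other single libraries it reached 11. ER5 was above the other 4 in VAMP2 and RAB3A, beside 3.58% of all tested genes. It also had the lowest summed proliferation markers, at 103 to 170 FPKM, and the part of these in the result was not tested.

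ER28 was above each of the other 4 lines in SYT11, SV2A and CADPS, beside 2.71% of all tested genes, and below them in SYT1, SNAP25 and RAB27B, beside 1.2%. The median folds of the 20 neighbours in ER28 were 0.30 for SYT11 and 0.49 for SV2A, both on chromosome 1, and the part of this region in the results was not tested. ER29 was above the other 4 in SYN2 (in 0 genes without ER29 replicate 2) and below them in 0 genes, where 0.828% and 0.349% of all tested genes were. ER47 was above or below the other 4 in 0 of the 36, where 0.131% and 0.0909% of all tested genes were.

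The dosing interval was compared over line means, 3 lines from mice dosed every 4 hours and 2 from mice dosed every 6 hours. In limma 0 of the 36 genes were called, while 3 of all 19799 tested genes (0.0152%) were. At an unadjusted p under 0.05 there were 2, beside 860 of all genes. These were SNAP25, which was lower in the 4 hour lines by a log2 difference of -1.46 ± 0.48 (SE), and SYT5, at -0.64 ± 0.21 (SE). Of the 6 hour lines, SNAP25 was called higher than the parental line in ER42 and not in ER47. The SYT5 mean of ER47, 1 of the 2 lines dosed every 6 hours, was raised by replicate 1, as given above. The lowest adjusted p among the 36 was 0.829. With so few lines a difference of this kind was not detectable unless it was large against the spread between lines.

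Other genes of the pathway came in 2 lists. Of 44 further neuronal genes 30 were tested, and for the mean of the 5 lines 6 were higher, 17 lower and 7 neither, with a median fold of -0.32. Of 39 general secretion genes, such as the exocyst and widely expressed SNAREs, 37 were tested, and 7 were higher, 17 lower and 13 neither, with a median fold of -0.21. Over all tested genes 23.9% were higher and 28.9% lower, with a median of 0.02. Of the 12795 protein-coding genes fitted alone, 3162 were higher and 5224 lower, with a median of -0.08. In all 5 lines alike, 2 neuronal genes were called higher and 6 lower, and 0 secretion genes higher and 10 lower, where 5.63% and 12.3% of all tested genes were. Among the 12795 protein-coding genes, 897 were higher and 2415 lower in this way, a share of lower calls near that of the neuronal genes. In ER42, 10 of the 30 neuronal genes and 0 of the 37 secretion genes were above each of the other 4 lines, beside 3.83% of all tested genes. Whether the lists differ in this was not tested.

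The highest called mean folds in these lists were 2.14 ± 0.15 for APBA1, the Munc18 binding adaptor Mint1, 1.58 ± 0.13 for SYT17, 0.86 ± 0.08 for DOC2B, a C2 domain calcium sensor, and 0.68 ± 0.13 for UNC13D, the Munc13 of cytotoxic granule release. APBA1 had 16, 18.6 and 15.3 FPKM in ER5, 5.52, 5.47 and 6.55 in ER28, 18.4, 15.5 and 12.2 in ER29, 12.8, 12.9 and 12.1 in ER47 and 4.33, 6.36 and 9.32 in ER42, against 1.99, 1.26 and 1.57 in the parental line. All 15 resistant libraries were above the parental ones. The lowest called mean folds were -2.14 ± 0.18 for PCLO, the release site scaffold piccolo, -2.06 ± 0.15 for SLC18A3, the vesicular acetylcholine transporter, -1.53 ± 0.22 for ERC2, another release site scaffold, and -1.39 ± 0.10 for SYNGR2, a synaptogyrin of non-neuronal cells. PCLO had 2.76, 3.42 and 5.11 FPKM in ER5, 4.48, 5.5 and 4.63 in ER28, 5.44, 4.97 and 6.03 in ER29, 3.13, 7.12 and 6.01 in ER47 and 11.7, 12.5 and 7.45 in ER42, against 26.4, 29 and 28.7 in the parental line. No resistant library reached the lowest parental value, and ER42 replicates 1 and 2 were again the highest among them.

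**Figure D5:**
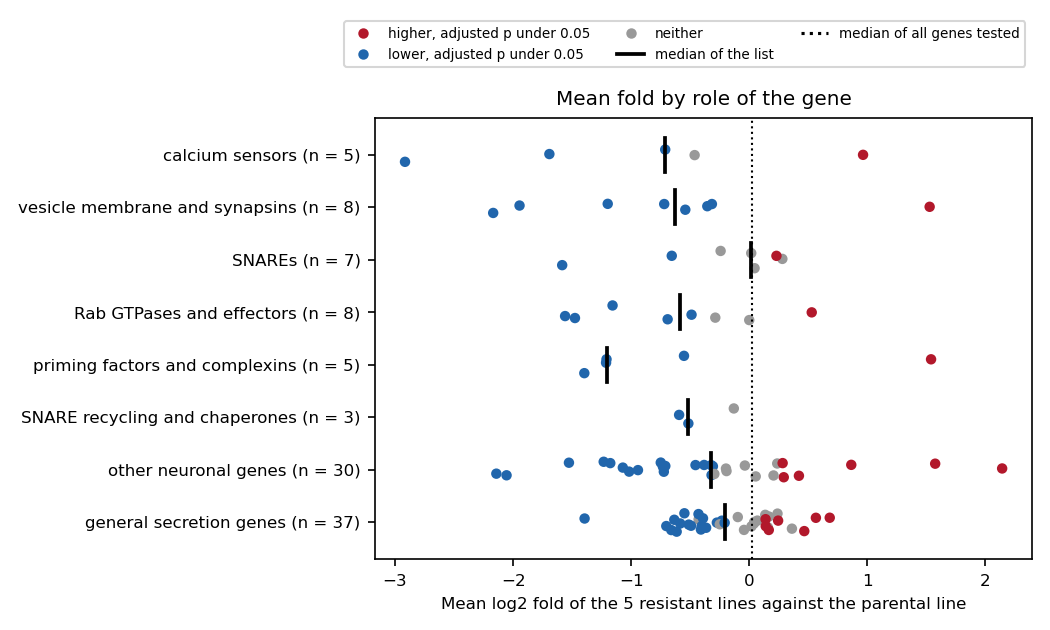
Log2 fold of the mean of the 5 resistant lines against the parental line (value axis) for each tested gene (points), by role and for both lists of other pathway genes; black bars are medians and the dotted line is the median of all tested genes, 0.02. The median lies lowest for priming factors and complexins, at -1.21, and near the dotted line for SNAREs.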

How the data were processed

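Total RNA libraries (KAPA RNA HyperPrep with RiboErase) ran on HiSeq and NextSeq instruments, per the labels' protocols. The instrument of each library is not known here, and a batch could not be tested. STAR 2.5.3, featureCounts, Subread 1.5.0-p1, STAR-Fusion and hg19 are named in the submitters' processing notes. The authors deposited FPKM values for 63657 identifiers in 18 libraries; neither the tool that made them nor the use of strand was given in the sources used here, and overlapping genes are uncertain. FPKM sums ran from 848024 to 1106282. Symbols came from GENCODE v29, which held 52514 identifiers (82.5%) and all 39 members. No hg19 coordinates are given.

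Genes with FPKM of at least 1 in at least 3 libraries (19799) were transformed to log2(FPKM + 1). One limma model with an intensity trend (R 4.3.3, limma 3.58.1) held 1 coefficient per line. Tests were two-sided and adjusted by Benjamini-Hochberg over all tested genes. A run on simulated libraries, with independent normal noise and few genes changed alike in every line, checked the code alone. Folds on the log2(FPKM + 1) scale understate the change of low genes. The labels do not say whether a line's libraries came from separate cultures, so p-values reflect the spread among these libraries alone, which may be technical. Full values are given for members called alike in all 5 lines, the 10 largest mean folds and the lowest F test p of each role. UNC13A, REST, APBA1 and PCLO were added after their values were seen. The members and lists were chosen with earlier results of these data known, and 1 sympathoadrenal marker is not reported here. Alternatives were pseudocount, filter, scaling, gene type, replicate block, the groups fitted and leaving out each library.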

Additional observations from a re-analysis of the deposited data

Results flagged for a closer look

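The fold against the parental line differed among the 5 resistant lines for 30 of the 36 tested genes, by limma's F test at an adjusted p under 0.05, where 52.3% of all tested genes did. In the fit of protein-coding genes alone, 8719 of 12795 were called. The values below are the adjusted p of the F test over all tested genes. Among the calcium sensors, it was 2.73e-07 for SYT4, 6.98e-07 for SYT1, 3.44e-06 for SYT11, 0.000128 for SYT7 and 0.0369 for SYT5. Among the vesicle membrane proteins and synapsins, it was 5.39e-07 for SYP, 4.85e-06 for SV2A, 7.47e-06 for SYN2, 0.00017 for SYN1, 0.00019 for SV2C and 0.00308 for SYNGR3. Among the SNAREs, it was 2.04e-06 for SNAP25, 3.12e-05 for STX1A, 0.000138 for VAMP2, 0.00192 for STX3 and 0.0296 for VAMP4. Among the Rab GTPases and effectors, it was 6.49e-07 for RAB3C, 5.26e-06 for RPH3A, 7.9e-06 for RIMS2, 2.89e-05 for RIMS1, 3.38e-05 for RAB27B, 0.000324 for RAB3A and 0.00163 for RAB3B, which passed the filter only through ER29. Among the priming factors and complexins, it was 8.55e-07 for CADPS, 5.36e-06 for UNC13A, 1.12e-05 for CPLX1, 8.41e-05 for CPLX2 and 0.00593 for UNC13B. For the recycling factors, it was 0.00123 for NAPB and 0.0281 for DNAJC5. Over the 5 lines the folds ran most widely for RAB27B, with -3.04 in ER28 and -0.14 in ER5, RAB3C, with -2.86 in ER5 and -0.12 in ER42, and SNAP25, with -1.26 in ER28 and 1.47 in ER42. Groups of 3 libraries were not searched for single outlying samples.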

How the results depend on the processing

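Of 5520 single-gene values recomputed under the alternatives, 5287 kept their direction and side of the threshold, 146 lost a call, 43 gained one, 44 folds that were called in neither fit changed sign, and 0 called folds did. Of 160 called folds, 23 moved by over 1.5 times with a pseudocount of 0.1 and 6 under quantile normalisation. Without the filter, 2 genes were higher in ER28, against 4. With only ER47 and the parental line in the fit, 5 were higher in ER47, against 3. Leaving out 1 library at a time, the genes higher numbered 2 to 4 in ER28, 3 to 6 for the mean of the 5 lines (3 without parental replicate 3) and 1 to 2 in all 5 lines (2 without ER5 replicate 1). Set against each of the other 4 lines, ER5 was below in 5 to 11 genes and ER29 above in 0 to 1 (0 without ER29 replicate 2). The genes lower in all 5 lines numbered 8 to 10 under every alternative run, and those above each other line in ER42 8 to 13. The 8 came at a filter of FPKM 5, which CPLX1, RIMS1, SYN1 and SYT7 did not pass. FPKM without read counts allow no counting error per value, and genes near 1 FPKM are the least certain.

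Replicate numbers did not pair the samples: over 45 same-numbered pairs the correlation of deviations ran from -0.26 to 0.23 (median 0.024), and 4 of 18 libraries correlated best with their own number. With the replicate block, ER28 was above each of the other lines in 5 genes, against 3 without it, RPH3A lost its ER28 call (adjusted p = 0.0591) and SYN2 was called higher in ER29 (adjusted p = 0.0375). The block changed no other call against the parental line and no other count by over 1.5 times. The dosing comparison of line means has no paired form.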
